A study of Homo sapiens with 6 samples.

Results

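The α1,3/4-fucosyltransferases FUT3, FUT4, FUT5, FUT6, FUT7 and FUT9 were measured in HCT-15 cells, a long-used line from a human colon tumour, that had or had not been treated with 5-aza-2'-deoxycytidine. This drug is a nucleoside that cells build into their DNA, where it traps the enzymes that methylate cytosine. Their probe sets were chosen as all those named by a RefSeq transcript of one of these 6 genes, which gave 7 of the 1259 probe sets of the table and 6 of the 927 genes that could be named. FUT3 had 2 probe sets and the other genes 1 each. The 3 treated arrays (treated replicates 1 to 3) carried total RNA of HCT-15 cells given the drug, and the 3 untreated arrays (untreated replicates 1 to 3) total RNA of HCT-15 cells without it. The sources used here give neither the dose nor the length of the treatment. The submitters wished to learn how glycan-related genes change after the drug, having found more of the sialyl Lewis x epitope on treated cells.

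Lewis antigens are short fucosylated ends of glycan chains. An α1,3-fucosyltransferase moves fucose from GDP-fucose to the N-acetylglucosamine of a type 2 chain (galactose β1,4-linked) and so makes Lewis x, or sialyl Lewis x where the galactose already carries α2,3-linked sialic acid. An α1,4-fucosyltransferase does the same on type 1 chains (galactose β1,3-linked) and makes Lewis a or sialyl Lewis a. The sialylated forms are ligands of the selectins, through which leukocytes and some carcinoma cells attach to endothelium. FUT3 is the Lewis enzyme and acts on both chain types, FUT5 and FUT6 are its close relatives, FUT4 and FUT7 are the enzymes best known from leukocytes, and FUT9 makes unsialylated Lewis x.

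The titles of the treated arrays hold the word control, but their source names read as treated, and they were grouped as treated. For untreated replicate 3 the title reads as treated, though it opens with the letter C as do those of the other untreated arrays. Its source name and treatment entry both read as untreated, and these decided its group. Results on the fucosyltransferases are therefore also given without it. Array medians lay between 5.81 and 5.92 on the log2 scale, and arrays correlated at 0.9974 or more within a group and at 0.9844 or less across groups. Separate cultures are not stated for the replicates, so the p-values reflect the spread among these arrays, which may be technical in part, and 3 arrays per group limit the precision. Of 17 markers listed for colon epithelium 5 had a named probe set (LGALS4, MUC1, MUC2, MUC13 and MUC20), and the defining markers EPCAM, CDH1, VIL1, CDX2 and the keratins were not analysed here. Their log2 values summed to 36.8 to 37.5 in treated and 36.0 to 36.5 in untreated arrays, with 2 called higher and 2 called lower. Of 10 leukocyte markers 4 had a named probe set, summing to 18.8 to 19.3 in treated and 18.4 to 18.9 in untreated arrays (CD33 called higher, CD22 called lower). For fibroblasts and endothelium 5 of 10 did, summing to 17.2 to 17.4 in treated and 16.6 to 17.4 in untreated arrays (PECAM1 called higher). Their part in the results on fucosyltransferases was not tested.

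No fucosyltransferase of this family was higher in treated cells by the test, and FUT3 was lower. In limma's fit over the whole table, with Benjamini-Hochberg adjustment over all 1259 probe sets and a call at an adjusted p under 0.05, 2 of the 7 probe sets fell, 0 rose and 5 were not called. Both of those that fell belong to FUT3. Without untreated replicate 3 there were likewise 2 falls and 0 rises among the 7. Of all 1259 probe sets 34.8% were called, 16.8% lower and 18.0% higher. At an unadjusted p under 0.05 there were 4 of the 7, all of them lower in treated cells, while over all probe sets 41.9% passed this threshold and 20.9% did so with lower values in treated cells. The fit without moderation of the variance also called 0 of the 7 higher. The median log2 change over the 7 probe sets was -0.16, beside -0.012 over all probe sets. The counts of the 7 and this median are by probe set, not by gene. FUT3 enters them with both of its sets, which name the same transcript. In 4 of the 7 (both FUT3 sets, FUT4 and FUT7) every treated array lay below every untreated array, which held for 23.4% of all probe sets. In 0 of the 7 did every treated array lie above, which held for 22.7%, and in either direction the groups of 46.1% of all probe sets did not overlap. With 3 arrays against 3, an exact permutation test of a single probe set cannot go below p = 0.1, so the calls rest on the fit.

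DNA methylation in human cells lies mostly at CG dinucleotides, and because the drug acts on it, the 250 bases before the annotated start were read for FUT3, FUT4, FUT6, FUT7 and FUT9 from RefSeq (GRCh38.p14). The motif counted was CG, which reads the same on both strands. FUT4 had 23, FUT9 11, FUT3 8, FUT7 4 and FUT6 3. Of 35114 promoter windows of this length 93.9% held at least 1 CG and the median was 11. A count as high as that of FUT4 was found in 25.8% of them, one as high as that of FUT3 in 56.3% and one as high as that of FUT6 in 77.1%. The windows of FUT3, the gene that fell, and of FUT4 and FUT6, which hold the most and the fewest, are shown 5′ to 3′ on the strand of the gene with every CG in capitals. Methylation was not measured here, and the counts describe only these letters. The FUT3 window, chr19:5851450-5851699 on the minus strand, lies inside the annotated gene, whose span reaches further upstream. The FUT4 window is chr11:94543671-94543920 on the plus strand, and the FUT6 window is chr19:5839703-5839952 on the minus strand.
FUT3: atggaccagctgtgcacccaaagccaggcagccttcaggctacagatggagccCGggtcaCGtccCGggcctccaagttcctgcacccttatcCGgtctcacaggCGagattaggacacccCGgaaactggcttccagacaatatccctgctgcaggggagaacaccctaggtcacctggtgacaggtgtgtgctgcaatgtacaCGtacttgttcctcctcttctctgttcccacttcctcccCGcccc
FUT4: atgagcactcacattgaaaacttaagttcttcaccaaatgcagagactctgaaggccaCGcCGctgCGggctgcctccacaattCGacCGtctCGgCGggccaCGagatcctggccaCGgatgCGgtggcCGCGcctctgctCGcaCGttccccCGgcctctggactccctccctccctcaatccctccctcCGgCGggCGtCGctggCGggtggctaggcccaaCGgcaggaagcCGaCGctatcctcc
FUT6: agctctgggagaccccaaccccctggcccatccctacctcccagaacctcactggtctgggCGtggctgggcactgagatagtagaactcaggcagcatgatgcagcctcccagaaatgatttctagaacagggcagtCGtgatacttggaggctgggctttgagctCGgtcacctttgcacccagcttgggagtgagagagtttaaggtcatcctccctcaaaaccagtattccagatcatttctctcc

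FUT3 encodes the Lewis enzyme, the member of the family that makes Lewis a and sialyl Lewis a as well as the type 2 forms. Its probe set without a suffix (NM_001097641.1_psr1_at) had log2 values of 5.92, 5.62 and 6.09 in treated cells, against 6.37, 6.51 and 6.29 in untreated cells. The groups did not overlap, and treated replicate 3, the highest treated array, stood below untreated replicate 3, the lowest untreated one. The mean was 5.88 ± 0.24 in treated cells and 6.39 ± 0.11 in untreated cells (SD, n = 3 each). This is a log2 change of -0.51 ± 0.11 (SE; 95% interval -0.77 to -0.26), or 1.43-fold lower, with an adjusted p = 0.00485 in limma's fit. The treated arrays were spread more widely than the untreated ones, from 5.62 in treated replicate 2 to 6.09 in treated replicate 3.

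The other FUT3 probe set (NM_001097641.1_psr1_x_at) carries the suffix x, which on Affymetrix arrays marks sets with probes that may also bind other transcripts. It had log2 values of 5.18, 5.00 and 5.26 in treated cells, against 5.69, 5.82 and 5.60 in untreated cells. The groups did not overlap here either, and the arrays came in the same order as in the first set. The mean was 5.14 ± 0.13 in treated cells and 5.70 ± 0.11 in untreated cells (SD, n = 3 each). The log2 change was -0.56 ± 0.09 (SE; 95% interval -0.76 to -0.36), or 1.47-fold lower (limma, adjusted p = 0.000587). The changes of both sets differed by 0.05 (95% interval -0.31 to 0.40, limma, adjusted p = 0.817), so a difference between them was not detected. Both sets name the same transcript, yet their levels differed by 0.73 on the log2 scale in treated and 0.69 in untreated cells. Levels of different probe sets were accordingly not ranked as amounts of transcript.

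Without untreated replicate 3 the FUT3 set without a suffix changed by -0.56 (limma, adjusted p = 0.00733) and the set with suffix x by -0.61 (adjusted p = 0.000877). The call of the FUT3 set without a suffix was lost where the variance was not moderated across probe sets (adjusted p = 0.0856, limma's linear model without eBayes; range over 13 alternatives 0.00139 to 0.0856), while the set with suffix x passed in all 13 (0.000198 to 0.0287).

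**Figure D1:**
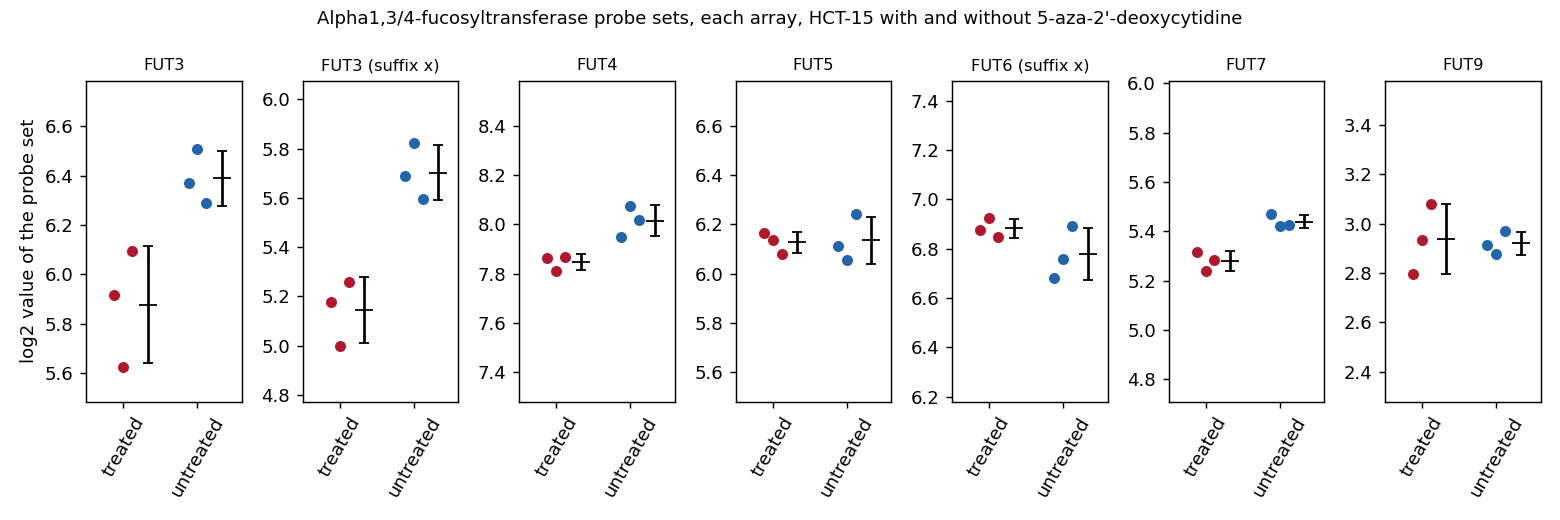
Log2 value of each fucosyltransferase probe set on each array (points; 3 treated arrays at left, 3 untreated at right of each panel), with the mean and SD of each group as the black bar beside them; every panel spans the same range of log2 units. The treated points lie below all untreated points for both FUT3 sets, FUT4 and FUT7, and the groups overlap for FUT5, FUT6 and FUT9.

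FUT5 and FUT6 flank FUT3 on chromosome 19 in the RefSeq order of protein-coding genes (FUT6, FUT3, FUT5), and the 3 genes have closely similar coding sequences, so their probe sets may share signal. FUT5 encodes an enzyme that acts mainly on type 2 chains, with weak activity on type 1. Its probe set (NM_002034.2_psr1_at) had log2 values of 6.16, 6.14 and 6.08 in treated cells, against 6.11, 6.05 and 6.24 in untreated cells. The groups overlapped fully, the untreated arrays spanning the treated ones. The log2 change was -0.0081 ± 0.075 (SE; 95% interval -0.17 to 0.16), with an adjusted p = 0.953 in limma's fit. The interval reaches from 1.13-fold lower to 1.12-fold higher, and without untreated replicate 3 the change was 0.04 (limma, adjusted p = 0.725).

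FUT6 encodes the α1,3-fucosyltransferase found in plasma, which makes Lewis x and sialyl Lewis x. Its probe set (NM_001040701.1_psr1_x_at) also has the suffix x. It had log2 values of 6.88, 6.92 and 6.85 in treated cells, against 6.68, 6.76 and 6.89 in untreated cells. Untreated replicate 3 stood within the treated range, and the other untreated arrays lay below it. The log2 change was 0.11 ± 0.08 (SE; 95% interval -0.06 to 0.27), and the adjusted p = 0.34 in limma's fit. Without untreated replicate 3 the groups did not overlap and the change was 0.16 (limma, adjusted p = 0.147). The upper end of the interval is a 1.21-fold rise, the highest among the 7 sets, and the highest upper end of any of the 7 sets over the alternatives was 1.26-fold, also for FUT6.

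FUT4, often called the myeloid type, makes Lewis x and, on some chains, sialyl Lewis x. Its probe set (NM_002033.2_psr1_at) had log2 values of 7.86, 7.81 and 7.87 in treated cells, against 7.95, 8.07 and 8.02 in untreated cells. The treated arrays all lay below the untreated ones, by a narrow gap and with little spread among themselves. The log2 change was -0.17 ± 0.07 (SE; 95% interval -0.32 to -0.014), or 1.12-fold lower, and did not pass the adjustment over the table (limma, adjusted p = 0.0913). Without untreated replicate 3 it was -0.16 (limma, adjusted p = 0.155). With array medians set equal the change was -0.23 and passed (limma, adjusted p = 0.0273), in a range of 0.0273 to 0.234 over 13 alternatives.

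FUT7 accepts sialylated type 2 chains only and is the enzyme that makes sialyl Lewis x on leukocytes. Its probe set (NM_004479.2_psr1_at) had log2 values of 5.32, 5.24 and 5.29 in treated cells, against 5.47, 5.42 and 5.42 in untreated cells. As with FUT4, the treated arrays were all lower, by a small margin. The log2 change was -0.16 ± 0.07 (SE; 95% interval -0.31 to -0.013), or 1.12-fold lower, and was not called (limma, adjusted p = 0.0923). Without untreated replicate 3 it was -0.17 (limma, adjusted p = 0.127). It passed after quantile normalization (limma, adjusted p = 0.0202), with array medians set equal (0.0239) and without moderation of the variance (0.0264), in a range of 0.0202 to 0.242 over 13 alternatives.

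FUT9, which makes Lewis x in brain and some leukocytes and prefers unsialylated ends, had, by its probe set NM_006581.3_psr1_at, log2 values of 2.80, 2.93 and 3.08 in treated cells, against 2.91, 2.88 and 2.97 in untreated cells. The treated arrays spanned the untreated ones. The log2 change was 0.02 ± 0.08 (SE; 95% interval -0.17 to 0.20), with an adjusted p = 0.922 in limma's fit, and 0.04 without untreated replicate 3 (limma, adjusted p = 0.809). Of all probe sets only 4.37% had a mean at or below that of FUT9. Detection calls were not used here, so whether this value stands above background was not tested. The means of the other 6 sets were placed higher in the table, with 41.8% (FUT7) to 74.1% (FUT4) of probe sets at or below them. The filter that left out the dimmest probe sets of the table (839 kept) kept 6 of the 7 sets, all but FUT9.

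That FUT3 passed and the others did not is no test of a difference between them. For this, the FUT3 set without a suffix was set against every other probe set within each array, and the differences were fitted with limma over all 1258. The FUT3 change was lower than that of FUT6 by 0.62 on the log2 scale (difference -0.62, 95% interval -0.97 to -0.27, limma, adjusted p = 0.00195). FUT3 also changed differently from FUT5 (-0.50, 95% interval -0.86 to -0.15, limma, adjusted p = 0.00962). The within-array difference of FUT3 and FUT5 averaged -0.25 in treated cells and 0.26 in untreated cells. FUT5 itself changed by -0.0081 and FUT3 by -0.51, so this difference is largely the change of FUT3. Against FUT4 (-0.35, 95% interval -0.70 to 0.0054, limma, adjusted p = 0.0684) and FUT7 (-0.35, -0.70 to -0.00095, adjusted p = 0.0637) the test was not passed. Against FUT9 the difference was called (-0.53, 95% interval -0.88 to -0.18, limma, adjusted p = 0.00724). The FUT9 set was dim and its signal was not tested against background, so this value is not read as a difference between these genes. The share called among all 1258 differences was not counted here, so these calls are not read as particular to this family.

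All these differences share the FUT3 values, so each of the 1258 contains the fall of FUT3. The adjustment over them was mild (unadjusted p = 0.00487 for FUT5 and 0.0494 for FUT7 in limma's fit), as it is where many differences have a small p. It therefore adds little to the unadjusted tests. limma also gave the differences one common error of 0.18, so all their intervals have the same width and do not reflect the spread of each difference. With the variance prior of the fit over probe sets in place of this common error, a choice made after seeing the data, all 5 passed. These included FUT4 (limma, adjusted p = 0.0252, unadjusted 0.0175) and FUT7 (0.0265, unadjusted 0.0186). With no moderation of the variance none of the 5 passed, and the differences from FUT6, FUT5 and FUT9 then had adjusted p of 0.0737, 0.0976 and 0.0702 in the linear model. Without untreated replicate 2 the differences from FUT5 (-0.40, limma, adjusted p = 0.0937) and FUT9 (-0.45, adjusted p = 0.0694) were not called, and without treated replicate 3 those from FUT4 (-0.44, adjusted p = 0.0126) and FUT7 (-0.46, adjusted p = 0.0101) were. Without untreated replicate 3 the differences from FUT5 (-0.61), FUT6 (-0.72) and FUT9 (-0.60) were still called (limma, adjusted p = 0.00958, 0.00241 and 0.0101).

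**Figure D2:**
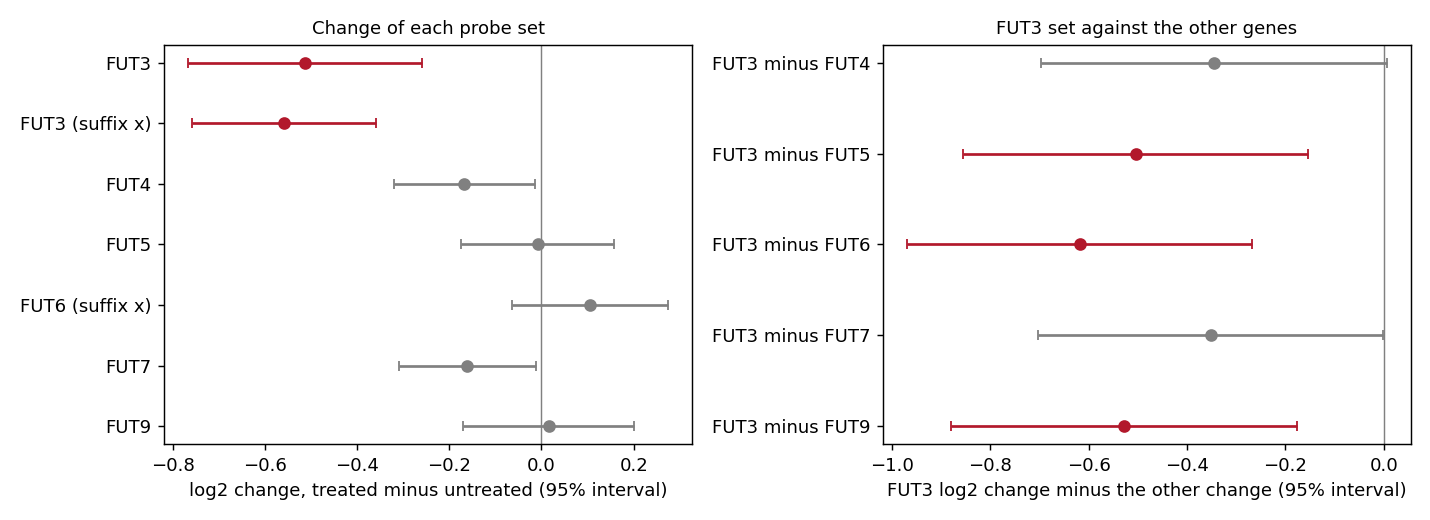
Left, log2 change of each fucosyltransferase probe set, treated minus untreated (points, with 95% intervals of limma's fit; red where the adjusted p is under 0.05). Right, log2 change of the FUT3 set without a suffix minus that of each other gene, on the same kind of axis. The differences from FUT5, FUT6 and FUT9, at -0.50, -0.62 and -0.53, were called, and those from FUT4 and FUT7, both at -0.35, were not. The FUT9 set was dim and was not tested against background.

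The genes whose values followed those of FUT3 most closely were found by the root mean square difference over the 6 arrays, after each probe set was centred on its mean. Among 926 other named genes these were ERBB3, a receptor tyrosine kinase (0.0717 log2 units, change -0.45), TGFBR3, a TGF-β co-receptor (0.0722, change -0.40), and UGT8, the galactosylceramide synthase (0.0740, change -0.50). The median distance over all 926 genes was 0.31, in the same units. The measure follows the group difference to a large part and says nothing of shared control.

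Genes that act before, beside and after these enzymes were counted in 6 lists, with the probe set of highest mean standing for a gene. Fucose is transferred from GDP-fucose, and of the 4 measured genes of its supply 3 fell and 0 rose, beside 16.8% of all probe sets that fell and 18.0% that rose. GMDS, the first enzyme of the pathway from GDP-mannose, had log2 values of 7.86, 7.91 and 7.78 in treated cells, against 8.73, 8.72 and 8.59 in untreated cells (change -0.83 ± 0.07 SE, limma, adjusted p = 9.04e-06). FPGT, of the fucose salvage route (-0.58, adjusted p = 6.3e-05), and SLC35C1, the Golgi GDP-fucose transporter (-0.55, adjusted p = 0.00182), also fell in limma's fit, and GFUS, the second enzyme from GDP-mannose, was not called (-0.10, adjusted p = 0.621). FUCA1, the lysosomal fucosidase and the only measured gene for fucose removal, rose by 0.49 (limma, adjusted p = 0.000882). The 7 other fucosyltransferases, which act on other positions or on proteins, had 4 falls and 0 rises, against the same shares over the table. The 4 were FUT2 (-0.91) and FUT1 (-0.36), which make the H antigen, FUT8 (-0.29), which fucosylates the core of N-glycans, and POFUT3 (-0.42), long known as FUT10. The FUT1 call was close to the threshold (limma, adjusted p = 0.0404, against 4.69e-05 for FUT2), and the FUT1 groups overlapped. POFUT1, POFUT2 and POFUT4 were not called, at changes of -0.04, 0.04 and 0.06. The 4 falls became 2 without untreated replicate 1, without untreated replicate 2 and without moderation of the variance, while the 3 falls of GDP-fucose supply were found on leaving out each array but became 2 without moderation of the variance and 2 without the dimmest probe sets. Neither count was compared with that of the α1,3/4 genes.

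Enzymes that build the acceptor chains went both ways, with 5 rises and 4 falls among 18 genes. B3GNT2, which extends polylactosamine, rose by 0.90, GCNT3 by 0.54, B4GALT1 by 0.37, B3GNT8 by 0.30 and GCNT2 by 0.25, whereas GCNT1 (-0.71), B3GNT3 (-0.37), B3GNT4 (-0.35) and B4GALT2 (-0.32) fell. B3GALT5, the galactosyltransferase that makes type 1 chains in colon, averaged 4.20 in treated and 4.18 in untreated cells and was not called. Of 7 genes that sialylate or sulfate Lewis chains 3 rose and 1 fell: ST3GAL6 (0.43), CHST6 (0.39) and CHST2 (0.32) were higher and ST3GAL3 (-0.76) was lower, and ST3GAL4 missed the call (0.25, limma, adjusted p = 0.0584). The ST3GAL6 set was dim, at 3.17 in treated and 2.73 in untreated cells, with 4.69% of probe sets at or below its mean. For CHST2 that share was 12.8%. Among 7 proteins known to carry E-selectin ligands MUC1 (1.30), CD44 (0.63), LAMP2 (0.48) and LAMP1 (0.30) rose and PODXL (-0.47) fell. Further MUC1 sets, with suffix x, rose less, by 0.90 and 0.98. A further probe set of LAMP2 was not called (0.16, limma, adjusted p = 0.176). The CD44 set was dim, at 3.76 in treated and 3.13 in untreated cells with 11.9% of probe sets at or below its mean, and the filter on dim sets left 3 rises among the carriers. Over all 6 lists 13 of 44 genes rose and 13 fell (29.5% each way, beside 18.0% and 16.8% of all probe sets), with a median log2 change of 0.03, and without untreated replicate 3 the counts were 14 and 13. In all these lists genes were counted by their brightest set, whereas the shares count every probe set, so the units differ. Of the 839 probe sets kept by the filter on dim sets 168 rose and 192 fell. The 5 rises of the acceptor list became 3 without untreated replicate 2, after quantile normalization and without moderation of the variance, the last of which left 2 of its falls and 2 of the carrier rises. The list of sialylation and sulfation had 2 falls after quantile normalization and 0 rises among probe sets that passed the filter on dim sets. Probe sets of FUT2, GCNT1, GCNT2 and ST3GAL6 carry the suffix s, and those of FUT8, ST3GAL3, CHST6 and MUC1 the suffix a. Both suffixes mark sets shared by several transcripts, and whether transcripts of other genes add to these values was not tested.

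**Figure D3:**
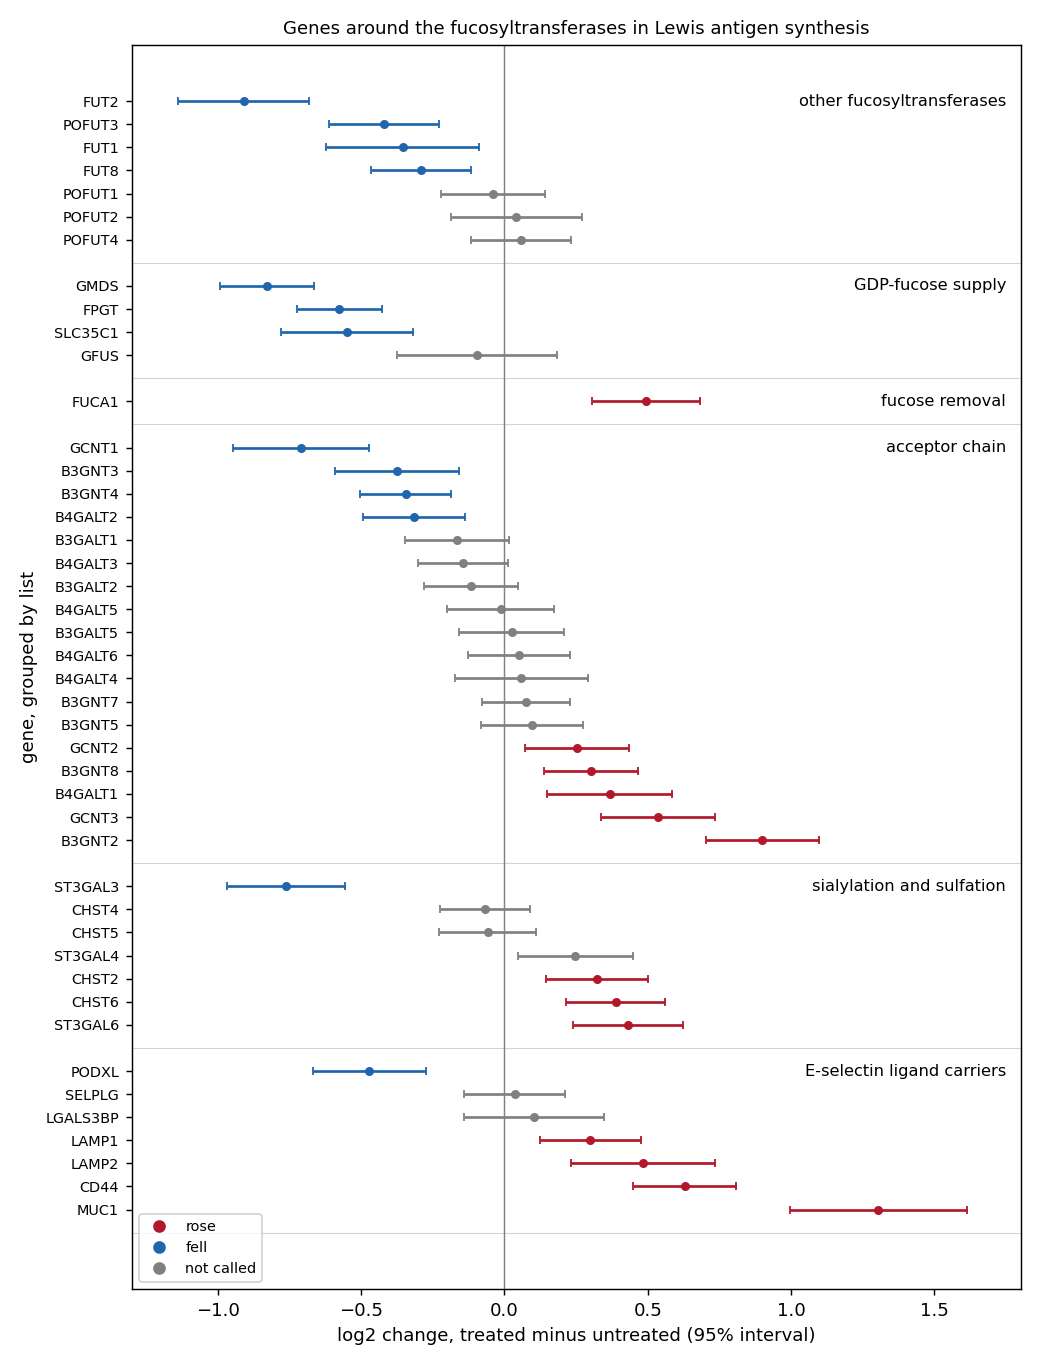
Log2 change of each measured gene of the 6 lists, treated minus untreated, with 95% intervals of limma's fit (red, rose; blue, fell; grey, not called). All called genes of fucose supply and of the other fucosyltransferases lie left of 0, while the acceptor chain, sialylation and carrier lists hold called genes on both sides.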

How the data were processed

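The log2 values deposited by the authors came as 1 column per array, for 6 arrays. They were made with RMA, per the submitters' processing notes. RMA subtracts background, equalises the arrays and joins each set's probes into 1 value. The platform, the build and the settings of RMA were not given in the sources used here. The values ran from 2.13 to 13.67, as log2 intensities do. RMA shrinks changes of dim sets, and its equalising step would reduce a change shared by most genes. Values of no pair of arrays were alike beyond 5 of 1259.

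Probe set names were matched without versions to RefSeq (GRCh38.p14), which named 1043 of 1259. All 1259 entered one linear model with a term for treatment (R 4.3.3, limma 3.58.1, lmFit and eBayes, two-sided), with no filter. Promoter windows came from RefSeq. The steps were tested on simulated data. Members and lists were chosen with earlier results of these data known. Genes were named by rule: every member probe set, called genes of the lists, those whose role is described, and the 3 closest profiles. Same-numbered arrays did not deviate together (correlations -0.27, 0.04 and -0.11), so the replicate number was not taken as pairing.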

Additional observations from a re-analysis of the deposited data

How the results depend on the processing

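The count of fucosyltransferase probe sets that fell, 2 of 7, was 3 after quantile normalization, 4 with array medians set equal (both FUT3 sets, FUT4 and FUT7) and 1 where probe sets with suffix x were left out. Falls over the whole table numbered 265 after quantile normalization and 311 after centring, against 211 as deposited, and rises 220 and 197, against 227. The count for the fucosyltransferases was 2 under each of the other alternatives, including each array left out, and 0 sets rose under any. Without moderation of the variance these 2 were the FUT3 set with suffix x and FUT7, as the FUT3 set without a suffix was not called. Centring moved every change by -0.07 on the log2 scale. FUT5 changed sign with array weights (0.023) and on leaving out arrays (-0.049 to 0.045). FUT9 changed sign after centring (-0.052), with array weights (-0.034) and on leaving out arrays (-0.056 to 0.086). The FUT3 change minus that of its own set with suffix x ran from -0.0056 to 0.10 on leaving out arrays. On leaving out arrays the FUT3 change minus that of FUT4 ran from -0.44 to -0.24, of FUT5 from -0.64 to -0.37, of FUT7 from -0.46 to -0.25 and of FUT9 from -0.62 to -0.40. FUT3 minus FUT4 was called after quantile normalization (-0.40, adjusted p = 0.0454 in limma's fit) and, with the variance prior of the fit over probe sets (added after seeing the data), FUT3 minus FUT4 (-0.35) and minus FUT7 (-0.35) were. Without moderation of the variance FUT3 minus FUT5 (-0.50), minus FUT6 (-0.62) and minus FUT9 (-0.53) were not called, and the 6 lists had 8 rises and 8 falls. The replicate number as a block changed no call of a fucosyltransferase probe set or of these differences (394 of 1259 probe sets called, against 438 without it; adjusted p of 0.0293 and 0.00872 for the FUT3 sets in limma's fit), and no array correlated best with its own number. The causes of these shifts were not tested. Dim probe sets such as FUT9 and the number of arrays limit what could be detected.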
